A study of Mus musculus with 6 samples.

Results

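The hairpins miR-142a and miR-223 are microRNA precursors closely tied to blood and myeloid cells, and each gives 2 mature arms. The members described here are mmu-miR-142a-5p, mmu-miR-142a-3p, mmu-miR-223-5p and mmu-miR-223-3p, chosen by name (the prefix mmu, for mouse, is left out from here on), and all 4 were found among the 598 miRNA names of the deposited table. Small RNA had been sequenced from exosomes, the small vesicles that cells shed into their medium, of RAW264.7 cells, a wild type mouse macrophage cell line. In the M0-exo group (3 libraries) the cells received no cytokine. In the M2-exo group (3 libraries) they received IL-4 at 20 ng/mL and IL-13 at 20 ng/mL for 24 h, the standard way to push macrophages towards the alternatively activated (M2) state. The exosomes came by ultracentrifugation from serum-free medium that replaced the complete medium after the cytokine step, and the methods do not describe the M0-exo cultures separately. All samples come from 1 cell line and carry the same batch label, and no label says whether the replicates were separate cultures. The p-values therefore measure the spread between these libraries, which may be technical. In the main fit of single miRNAs that spread was pooled over miRNAs, so the scatter of 1 miRNA hardly entered its p-value or interval.

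A microRNA hairpin is cut by Drosha and Dicer into a duplex of its 5p and 3p arms, and one arm, the guide, is preferentially kept in an Argonaute protein while the other is mostly degraded. miR-142 is expressed across blood cell lineages, and both of its arms are known to be loaded and to repress targets. miR-223 is induced during myeloid differentiation under C/EBPα and PU.1, restrains neutrophil and inflammasome activity (Nlrp3 is a known target of its 3p arm), and its 3p arm is regarded as the guide. Both are also known as cargo of vesicles released by macrophages.

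The sequences of the 4 arms, as the table gives them, are shown because the arms are what the counts separate. Capitals mark the seed, bases 2 to 8 from the 5′ end, which pairs with target transcripts.
miR-142a-5p: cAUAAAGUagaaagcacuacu
miR-142a-3p: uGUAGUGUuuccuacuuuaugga
miR-223-5p: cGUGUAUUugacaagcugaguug
miR-223-3p: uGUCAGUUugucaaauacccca

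The 4 seeds differed from each other, and 0 of the other miRNA names in the table and 0 of the other mature miRNAs in the RefSeq table shared any of them. Both 3p arms begin with U and both 5p arms with C. The nearest other sequence in the table was 8 edits away for each miR-142a arm and 9 edits away for each miR-223 arm, so these 4 names share no near-identical copy in the table. All 4 sequences were identical to the RefSeq entries.

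Both hairpins are printed from RefSeq (GRCm38.p6, plus strand), with the 2 mature arms in capitals and the 5p arm first.
Mir142, chr11:87756864-87756927: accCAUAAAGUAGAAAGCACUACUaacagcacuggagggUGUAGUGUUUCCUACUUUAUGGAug
Mir223, chrX:96242817-96242926: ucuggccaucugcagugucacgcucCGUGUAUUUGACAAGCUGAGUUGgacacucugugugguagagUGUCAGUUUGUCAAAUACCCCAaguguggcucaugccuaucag

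The longest unbroken Watson-Crick run between the arms was 10 bases in miR-142a and 11 bases in miR-223. In the GENCODE M21 annotation of GRCm38, Mir142 lies in an intron of the long noncoding RNA Mir142hg (chromosome 11, 87755577 to 87757270, same strand). A second hairpin, Mir142b, is annotated on the opposite strand over the same bases (87756841 to 87756955). Its mature product, miR-142b, was not among the names of the deposited table, so it was not analysed here. Mir223 lies on chromosome X inside the noncoding gene F630028O10Rik (96239926 to 96243636, same strand), in exon 3 of one annotated transcript and exon 2 of another. The build named in the submitters' processing notes is mm39, and the table holds no coordinates, so these positions are those of the annotation.

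The libraries held 863194 to 1453348 counts in M0-exo against 860204 to 969974 in M2-exo, after keeping 1 entry per miRNA name. Low counts scattered more than counting noise. Over miRNAs with a mean of 1 to 20 counts, the variance between libraries was 8.13 times the mean in M0-exo (262 names) and 3.35 times in M2-exo (254 names). A single count in M0-exo therefore carried less information than one in M2-exo, and the binomial intervals given here cover counting error only. Names at 1 or 2 counts numbered 11 to 17 in an M0-exo library against 56 to 79 in an M2-exo library. A 0 in M0-exo beside a few counts in M2-exo is thus hard to read. The total vesicle number and the RNA per vesicle, like cell number and RNA per cell in other bulk samples, cannot be told apart in these data.

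miR-142a-3p was the most abundant of the 4 arms in every library, followed by miR-142a-5p, and both miR-223 arms were scarce. In TMM-scaled CPM (counts scaled by edgeR to a common library size), miR-142a-3p stood at 394 ± 81.9 (SD, n = 3) in M0-exo against 539 ± 105 in M2-exo. miR-223-3p stood at 13.6 ± 4.37 and 41.9 ± 8.61. The study's thresholds (a log2 fold change of 0.5 or more in size with an unadjusted p below 0.05) were passed by 1 of the 4 members, miR-223-3p, which was higher in M2-exo. Of all 598 miRNAs, these thresholds called 10% in either direction, 3.68% higher and 6.35% lower. An adjusted p below 0.05 was reached by 1 of the 4 members, miR-142a-3p, against 8.86% of the 598 miRNAs (4.18% higher and 4.68% lower). Names with few counts are hard to call, and all 4 members had a mean of at least 10 counts. In a fit of the 241 miRNAs with such a mean, 50 were called (17 higher, 33 lower), miR-223-3p the only member. An adjusted p below 0.05 was reached there by 56, with miR-223-3p at 0.0382 and miR-142a-3p at 0.0966 (edgeR).

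**Figure D1:**
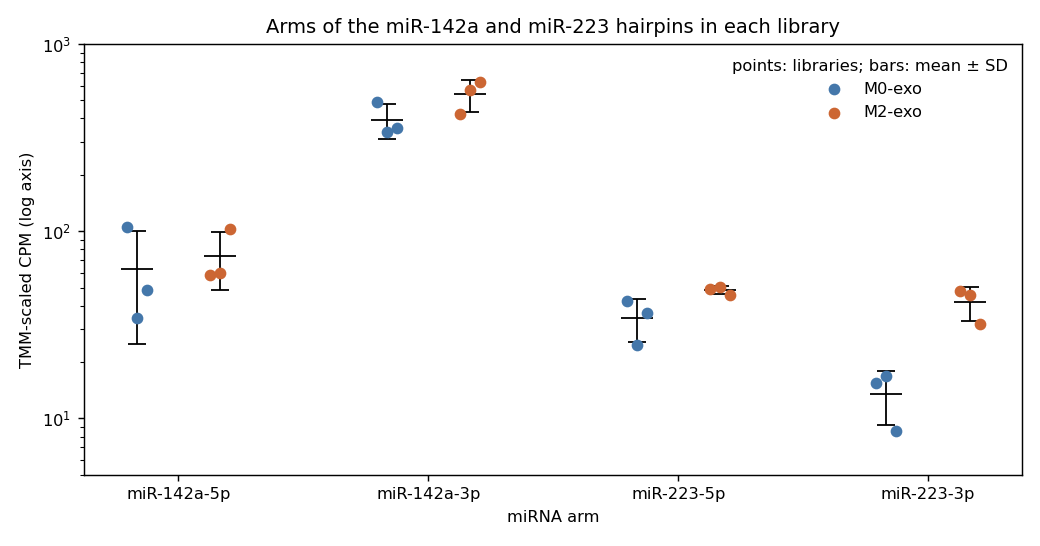
TMM-scaled CPM (log axis) of each arm in the 3 M0-exo and 3 M2-exo libraries, with the mean and SD of each group. The groups overlap for both miR-142a arms, and on this scale the M2-exo libraries lie above the M0-exo libraries for both miR-223 arms; with library totals alone this holds for miR-223-3p and not for miR-223-5p.

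The counts of miR-223-3p, the guide arm by common view, were 24, 21 and 8 for M0-exo libraries in the order of their replicate numbers 1, 2 and 3, against 41, 38 and 28 for M2-exo libraries in that order, which is used throughout. Scaled, these were 15.4, 16.8 and 8.60 CPM in M0-exo against 48.0, 45.6 and 32.0 CPM in M2-exo. Every M2-exo library lay above every M0-exo library, although M0-exo replicates 1 and 2 had the largest library totals. The rank of miR-223-3p by count lay between 207 and 255 of 598 names in M0-exo and between 135 and 154 in M2-exo. Its log2 fold change was 1.60 (standard error 0.58, 95% interval 0.46 to 2.74, adjusted p = 0.0582 from edgeR's quasi-likelihood test with Benjamini-Hochberg adjustment over 598 miRNAs). In linear terms this is a 3.04-fold rise with an interval of 1.38 to 6.68. The adjusted p ran from 0.0382 to 0.320 over the alternatives tried.

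The low counts behind this value limit it. With each group's counts scaled down by the ratio of variance to mean just given, an alternative chosen after seeing the data, miR-223-3p came to 3, 3 and 1 in M0-exo against 12, 11 and 8 in M2-exo. Its log2 fold change was then 1.38, still past the study's thresholds (adjusted p = 0.113 from edgeR).

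The other arm of the same hairpin, miR-223-5p, was counted 66, 31 and 34 times in M0-exo against 42, 42 and 40 times in M2-exo. Scaled, it stood at 42.3, 24.8 and 36.6 CPM in M0-exo against 49.2, 50.3 and 45.7 CPM in M2-exo. The M2-exo libraries were nearly level (48.4 ± 2.39 CPM, SD, n = 3) and lay just above the highest M0-exo library (34.5 ± 8.93 CPM over the group). Its log2 fold change of 0.48 (standard error 0.43, 95% interval -0.37 to 1.34, adjusted p = 0.524 from edgeR) did not pass. For both miR-223 arms, 2 of the 4 members, the lowest M2-exo library exceeded the highest M0-exo library, a pattern seen in 9.53% of all 598 miRNAs (19.1% were separated in either direction). For miR-223-5p this rested on the TMM factors. Scaled by library totals alone, an alternative chosen after seeing the data, it stood at 45.4, 26.8 and 39.4 CPM in M0-exo against 44.8, 48.8 and 41.2 CPM in M2-exo, and the groups overlapped. On that scale 1 of the 4 members, miR-223-3p, was separate with M2-exo higher, against 4.68% of the 598 miRNAs. These shares include names at 0, since only 368 to 417 of the 598 names were above 0 in a library. The share among miRNAs as abundant as the members was not computed.

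The most abundant arm, miR-142a-3p, was counted 762, 425 and 329 times in M0-exo against 361, 473 and 548 times in M2-exo. After scaling it stood at 488, 339 and 354 CPM in M0-exo against 423, 567 and 627 CPM in M2-exo. M0-exo replicate 1 lay above M2-exo replicate 1, so the groups overlapped. The log2 fold change was 0.45 (standard error 0.15, 95% interval 0.15 to 0.75, adjusted p = 0.0408 from edgeR), below the study's fold threshold. The adjusted p rose to between 0.262 and 0.366 when any one of M0-exo replicates 2 and 3 and M2-exo replicates 2 and 3 was left out. Without M0-exo replicate 1 the log2 fold change was 0.64 and without M2-exo replicate 1 it was 0.58, both past the study's thresholds. With no scaling beyond the library total the log2 fold change was 0.23 (adjusted p = 0.533 from edgeR), and DESeq2 gave an adjusted p of 0.163.

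Its partner miR-142a-5p was counted 165, 43 and 45 times in M0-exo against 50, 50 and 90 times in M2-exo. Scaled, it stood at 106, 34.3 and 48.4 CPM in M0-exo against 58.5, 59.9 and 103 CPM in M2-exo. M0-exo replicate 1 was the highest library, just above M2-exo replicate 3, and it alone made the groups overlap. M0-exo replicates 2 and 3 lay below every M2-exo library. The log2 fold change was 0.22 (standard error 0.33, 95% interval -0.43 to 0.87, adjusted p = 0.761 from edgeR). Single libraries decided its direction. It was -0.075 without M0-exo replicate 2, -0.093 without M2-exo replicate 3 and 0.84, past the study's thresholds, without M0-exo replicate 1 (adjusted p = 0.194 from edgeR).

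**Figure D2:**
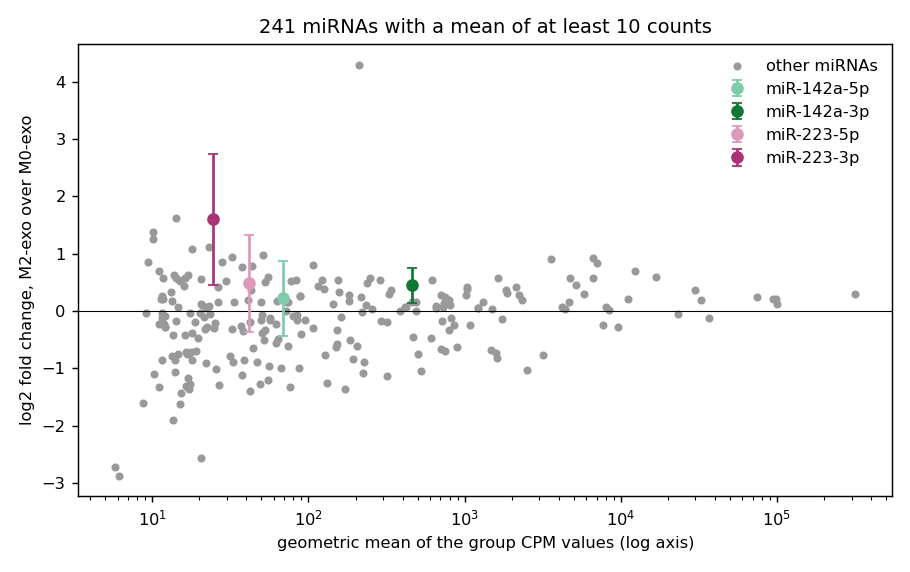
Log2 fold change (M2-exo over M0-exo) against the geometric mean of the group CPM values, each with 0.5 added (log axis), for the 241 miRNAs with a mean of at least 10 counts, with 95% intervals for the 4 arms. The miR-223 arms lie at the low end of the abundance axis with wide intervals, and only the intervals of miR-223-3p and miR-142a-3p lie above 0.

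The order of the levels was the same in every library, with miR-142a-3p first, then miR-142a-5p, then miR-223-5p, and miR-223-3p last. Between groups of libraries the neighbours were closer. The scaled levels of miR-142a-5p and miR-223-5p overlapped in M0-exo but not in M2-exo. Those of miR-223-5p and miR-223-3p did not overlap in M0-exo and did in M2-exo.

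The arms of 1 hairpin are counted in the same library, so their ratio does not depend on the scaling between libraries. For miR-142a the 3p arm made up 82.2%, 90.8% and 88.0% of the hairpin's counts in M0-exo against 87.8%, 90.4% and 85.9% in M2-exo. The group means were 87.0% ± 4.39 and 88.1% ± 2.28 (SD, n = 3), and the ranges overlapped. miR-142a was thus a hairpin with an abundant 3p arm and a measurable 5p arm in both groups.

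For miR-223 the arms were more even, and the 5p arm had more counts in 6 of 6 libraries. The 3p arm made up 26.7% (95% exact Clopper-Pearson interval 17.9% to 37.0%, of 90 counts), 40.4% (27.0% to 54.9%, of 52) and 19.0% (8.60% to 34.1%, of 42) in M0-exo. In M2-exo it made up 49.4% (38.2% to 60.6%, of 83), 47.5% (36.2% to 59.0%, of 80) and 41.2% (29.4% to 53.8%, of 68). The 2 groups did not overlap, by a margin of less than 1 percentage point between M0-exo replicate 2 and M2-exo replicate 3. Pooled, 53 of 184 counts (28.8%) in M0-exo against 107 of 231 counts (46.3%) in M2-exo came from the 3p arm.

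**Figure D3:**
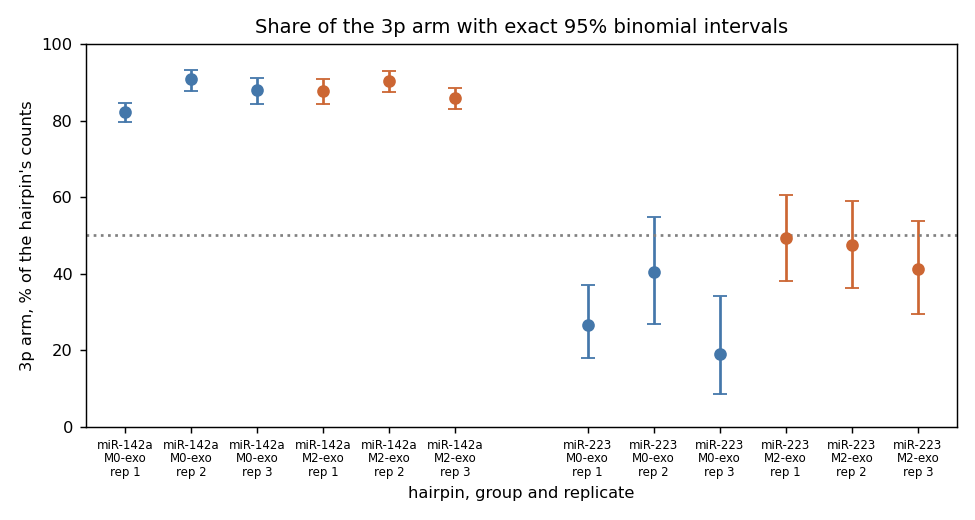
Share of each hairpin's counts that came from the 3p arm, in percent, for each library, with exact 95% binomial intervals that cover counting error only; the dotted line marks equal arms. The miR-142a points stay between 82.2% and 90.8% in both groups, while the miR-223 points lie below 50% throughout and are higher in M2-exo.

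On the log2 scale, with 0.5 counts added to each arm, the 3p to 5p ratio of miR-223 was -1.34 ± 0.74 (SD, n = 3) in M0-exo against -0.23 ± 0.25 in M2-exo, a difference of 1.11. That of miR-142a was 2.78 ± 0.55 and 2.89 ± 0.32, a difference of 0.11. The two-sided exact permutation test over the 6 libraries gave p = 0.1 for miR-223, the smallest value that 3 against 3 libraries allow, and p = 1 for miR-142a.

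The change in the arm ratio was also fitted across the 111 hairpins with both arms listed, using edgeR with each library as a block. The log2 change was 1.12 for miR-223 (standard error 1.14, 95% interval -1.34 to 3.57, adjusted p = 0.847) and 0.12 for miR-142a (standard error 0.44, 95% interval -0.83 to 1.07, adjusted p = 0.930). Neither was called, and the intervals leave room for changes of more than 1 in miR-223 in either direction. In this fit 0 of 111 hairpins (0%) had an adjusted p below 0.05 with edgeR, 10.8% had an unadjusted p below 0.05 (7.21% towards the 3p arm in M2-exo), and DESeq2 called 5 with an adjusted p below 0.05, neither of the 2 hairpins among them. The adjusted p for miR-223 was 0.395 with DESeq2 and 0.435 with limma on the ratios. The ratio ranges did not overlap for 15.3% of the 111 hairpins and were higher in M2-exo for 8.11%, which is the background for the 1 of 2 hairpins, miR-223, whose ranges were separate. Among the 44 hairpins with a mean of at least 10 counts for each arm, as both of these have, the ranges were separate for 25% and towards the 3p arm in M2-exo for 11.4%.

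In these 44 hairpins, the 3p arm had more counts in all 6 libraries for 16, the 5p arm for 22, and 6 were mixed. The difference in the mean log2 arm ratio between the groups ran from -1.43 to 3.73, with a median of -0.09. miR-223 ranked 8 of 44 by this difference and miR-142a ranked 21.

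**Figure D4:**
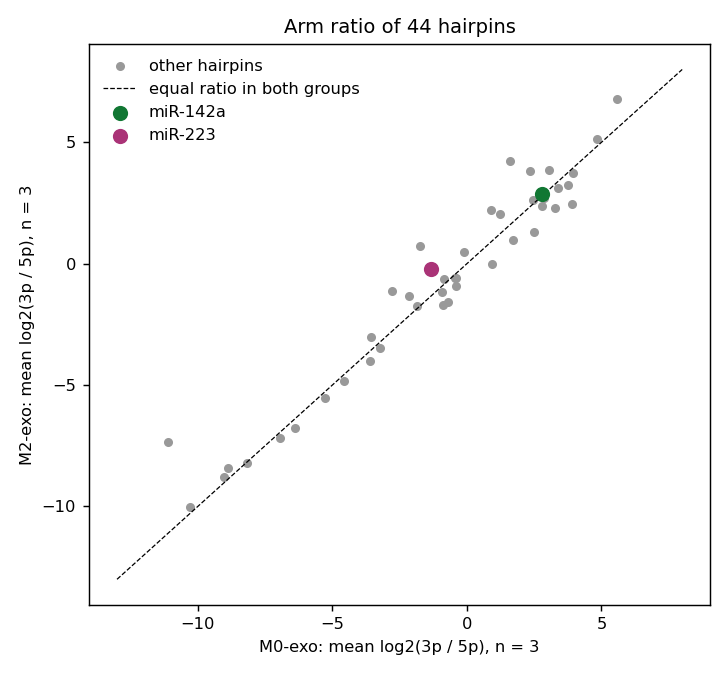
Mean log2 ratio of the 3p to the 5p arm in M0-exo (horizontal axis) and M2-exo (vertical axis), n = 3 libraries each, for 44 hairpins with a mean of at least 10 counts for each arm. miR-142a lies 0.11 above the line of equal ratios and miR-223 lies 1.11 above it, both within the scatter of the other hairpins.

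Ratios between the hairpins compare them without scaling too. miR-223-3p stood at 3.15%, 4.94% and 2.43% of the miR-142a-3p count in M0-exo against 11.4%, 8.03% and 5.11% in M2-exo. The highest M0-exo library lay just below the lowest M2-exo library. The difference of the log2 ratio was 1.18 (exact permutation test, two-sided, p = 0.1, adjusted p = 0.3 over the 6 ratios tested among the 4 arms). The ratio of miR-223-5p to miR-142a-3p was 8.66%, 7.29% and 10.3% in M0-exo against 11.6%, 8.88% and 7.30% in M2-exo, with a log2 difference of 0.07 (exact permutation p = 0.8). The ratio of miR-223-3p to miR-142a-5p differed by 1.28 on the log2 scale (exact permutation p = 0.2), with overlapping ranges, and that of miR-223-5p to miR-142a-5p by 0.17 (exact permutation p = 0.5).

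The miRNAs whose profile over the 6 libraries was most like that of the more abundant arm of each hairpin were found by the root mean square difference of centred log2 CPM values, among 237 miRNAs with a mean of at least 10 counts. For miR-142a-3p these were miR-30e-5p (0.17), miR-26a-5p (0.17) and miR-532-5p (0.19), against a median of 0.56. Their log2 fold changes were 0.27, 0.57 and 0.41. For miR-223-5p they were miR-339-3p (0.16), miR-26b-5p (0.19) and miR-7a-5p (0.20), against a median of 0.57, with log2 fold changes of 0.58, 0.58 and 0.71.

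Of 15 other miRNAs linked to myeloid or macrophage biology, all were listed, 1 was called higher and 2 were called lower by the study's thresholds. These thresholds called 3.68% of all 598 miRNAs higher and 6.35% lower. The 1 higher was miR-21a-5p, a widely expressed miRNA known from activated macrophages (log2 fold change 0.55, standard error 0.18, adjusted p = 0.0258 from edgeR). miR-155-5p, which inflammatory signals induce, was lower (-1.04, standard error 0.15, adjusted p = 1.85e-10 from edgeR), as was miR-342-5p (-0.82, standard error 0.11). With an adjusted p below 0.05, miR-23a-3p (0.37) and miR-24-3p (0.41) were also higher. The median log2 fold change of the 15 was 0.31, against 0.03 over all 598 miRNAs and 0.47 for the 4 members. That 0.31 was the value of miR-132-3p, at 0, 8 and 2 counts in M0-exo against 2, 6 and 1 in M2-exo. The summed CPM of the 15 overlapped between the groups, at 7271 to 8195 in M0-exo against 7844 to 7941 in M2-exo. miR-511-3p, at 0 counts in every M0-exo library, had 8, 1 and 1 in M2-exo, so that only M2-exo replicate 1 lay above the limit of 3 counts that a 0 allows, and no fold is given for it. Without it the median was 0.22.

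The labelled macrophage line was checked against markers of other sources. The 4 members summed to 415 to 651 CPM in M0-exo against 578 to 807 CPM in M2-exo. Of 7 red cell and serum miRNAs 5 were listed, and miR-486a-5p and miR-486b-5p held identical counts in all 6 libraries. With these counted once, the list summed to 95.4 to 157 CPM in M0-exo against 199 to 2617 CPM in M2-exo, without overlap (147 to 268 against 266 to 2717 CPM with both counted). miR-122-5p, a liver and serum miRNA, was the 1 called higher, against 3.68% of all 598 miRNAs. It had 63, 59 and 51 counts in M0-exo against 137, 107 and 2184 in M2-exo. Without it, and with miR-486 counted once, the list summed to 55.1 to 110.2 CPM in M0-exo against 70.7 to 135 CPM in M2-exo, so the groups overlapped. The median log2 fold change, with miR-486 counted once, was 1.30 with miR-122-5p and 0.94 without it. Both medians rested on names with few counts. The 0.94 was the value of miR-451a, at 6, 0 and 10 counts in M0-exo against 7, 3 and 14 in M2-exo. For miR-192-5p the counts were 0, 0 and 3 against 5, 0 and 4. The log2 fold change of miR-486a-5p, with more counts, was 0.26 (standard error 0.29). Of 7 endothelial and stromal miRNAs 5 were listed and 2 were called higher (miR-126a-5p and miR-199a-3p), against 3.68% of all 598 miRNAs. The sums were 119 to 139 CPM in M0-exo against 163 to 278 CPM in M2-exo, without overlap. Both calls rested on few counts. These were 23, 6 and 3 in M0-exo against 12, 25 and 25 in M2-exo for miR-126a-5p. For the other they were 1, 0 and 0 against 7, 7 and 19. After edgeR's adjustment over all miRNAs neither stayed below 0.05 (0.343 for miR-126a-5p and 0.0582 for miR-199a-3p). Of the 2 lymphocyte miRNAs only miR-150-5p was listed, with 40, 0 and 0 counts in M0-exo against 4, 9 and 9 in M2-exo, and it was not called. Of 5 epithelial miRNAs 2 were listed, neither was called, and the summed CPM of the groups overlapped. miR-223 is itself abundant in blood and serum, and the part of these sources in the result for miR-223-3p was not tested. Its lowest M2-exo value fell in M2-exo replicate 3, the library with the most miR-122-5p. Without that library the log2 fold change of miR-223-3p was 1.76, past the study's thresholds (adjusted p = 0.111 from edgeR). That fit is no test of these sources. M2-exo replicates 1 and 2 still held 137 and 107 counts of miR-122-5p, above the 63, 59 and 51 of M0-exo.

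**Figure D5:**
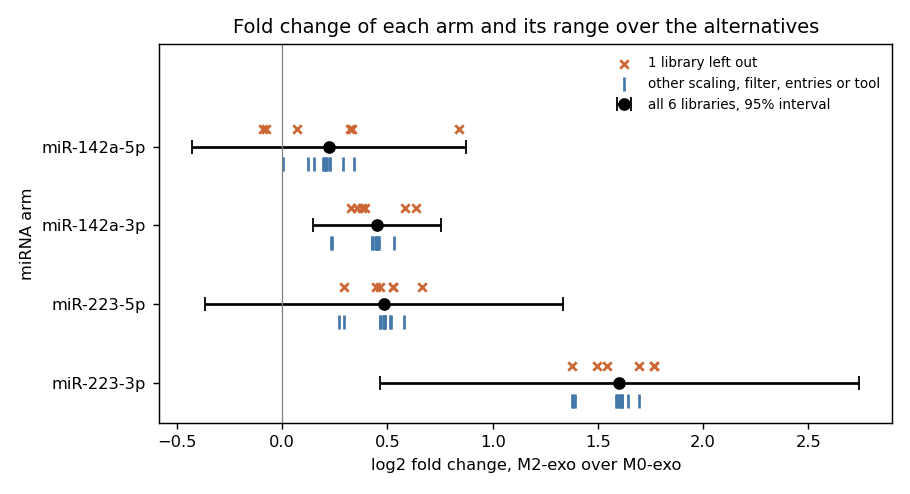
Log2 fold change of each arm with all 6 libraries (black, 95% interval), with 1 library left out (crosses) and under other scalings, filters, entries or tools (ticks). miR-223-3p stayed between 1.38 and 1.77, and miR-142a-5p crossed 0 when single libraries were left out.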

How the data were processed

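Small RNA libraries were prepared with the NEBNext Multiplex Small RNA set, per the labels. The authors deposited raw counts for 638 entries, each a mature miRNA from 1 precursor. The deposited RPM columns matched the counts rescaled by each library's sum (tolerance 0.01). The RPM values were used only for this check and, recomputed from the counts, for 1 alternative. The genome build in the submitters' processing notes is mm39, and the aligner, counter, miRNA release and filters are not given in the sources used here.

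Of several entries of 1 name, the one with the largest sum over libraries was used (598 names). Group differences were fitted in R 4.3.3 by edgeR 4.0.16 (TMM factors, glmQLFit and glmQLFTest, no covariates, no filter on low counts). The prior degrees of freedom of this fit were infinite, against 9.45 in the arm fit, so its p-values rest on spread shared between miRNAs. miR-122-5p, at 137, 107 and 2184 counts in M2-exo, still had a standard error of 0.18. A standard error is the unshrunken log2 coefficient over the root of its F statistic. Arm ratios were fitted over 111 hairpins whose 5p and 3p arms share a name, with library as a block. DESeq2 1.42.0 and limma 3.58.1 (with log2(RPM + 1) for 1 fit) served as alternatives. Single ratios were compared by exact permutation, two-sided, with scipy 1.17.1. The steps were tested on simulated data. Low counts scattered less there than in these libraries, so that test does not cover the noise of the miR-223 arms. The members, marker lists and tests were chosen with earlier results of these data known. The named miRNAs were the members, those sharing a seed, the 3 nearest profiles per hairpin, and list members that were called or set beside a result. All samples carried the same batch label. The limit that a 0 sets is 3 counts, which is 2.06 to 3.49 CPM depending on the library.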

Additional observations from a re-analysis of the deposited data

How the results depend on the processing

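The log2 fold change of miR-223-3p kept its direction in all alternatives (1.38 to 1.77 over the 6 fits that left out 1 library, adjusted p between 0.0382 and 0.320 over all alternatives). It remained past the study's thresholds except where an adjusted p below 0.05 was required (1.60). That of miR-142a-3p was 0.53 with upper-quartile factors and so passed, passed at 0.45 where only an adjusted p below 0.05 was asked, and ran from 0.33 to 0.64 with 1 library left out. The log2 fold change of miR-142a-5p ran from -0.093 to 0.84 and that of miR-223-5p from 0.29 to 0.66 in those 6 fits. The arm ratio of miR-142a changed by -0.19 to 0.37 in the arm fit and -0.18 to 0.36 in the direct ratio with 1 library left out, and the direct ratios of miR-223-5p to miR-142a-3p and to miR-142a-5p by -0.11 to 0.23 and -0.12 to 0.48. That of miR-223 ran from 0.78 to 1.51 in the arm fit. The cause was not tested.

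Called miRNAs numbered 60 (22 higher, 38 lower). Scaled by library totals alone, 10 rose and 63 fell, and the median log2 fold change moved by -0.20. With limma on log2(RPM + 1) 11 were higher, and at a fold threshold of 1 (log2) there were 27 (7 higher, 20 lower). With 1 library left out, 32 to 59 had an adjusted p below 0.05 (53 with all). Hairpins with a changed arm ratio numbered 0, but 6 with a mean of at least 10 counts for each arm, 5 with DESeq2, 6 with counts scaled down by that ratio of variance to mean and 0 to 5 with 1 library left out.

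Replicate numbers did not pair the samples (correlations of deviations of -0.04, 0.02 and -0.05 over 241 miRNAs). With a replicate block 56 miRNAs were called, miR-223-3p among them (1.64, adjusted p = 0.0862 from edgeR), and no call on the 4 arms changed.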
